A study of Mus musculus with 6 samples.

Results

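The RNAs analysed here were those encoded by the mitochondrial genome of cardiomyocytes (CMs), the contractile cells of the heart. Members were all rows of the expression table whose gene symbol begins with mt-, and they numbered 24 of 16448 rows, namely 2 rRNAs, 8 mRNAs and 14 tRNAs. RNA sequencing was done on 6 samples of ventricular CMs from C57BL/6 mice aged 8 to 12 weeks, in 2 groups of 3. The Cpt1bcKO mice carried αMHC-Cre pos/+ with Cpt1b fl/fl, and the CtrlCre mice carried the same αMHC-Cre pos/+ with the wild-type allele Cpt1b+/+. Cpt1b encodes the muscle form of carnitine palmitoyltransferase, the enzyme that admits long-chain fatty acids to mitochondria for oxidation, and the comparison asks what its loss from CMs changes. The Cre recombinase is driven in both groups by the αMHC (Myh6) promoter, which is active in CMs, so other cell types in a sample keep an intact Cpt1b gene. CMs were obtained by enzymatic perfusion of the heart and low-speed centrifugation without a sort, and libraries were made from total RNA with no step that selects polyadenylated RNA.

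The mitochondrial genome is a small circular DNA present in many copies per cell. Both of its strands are transcribed as long precursors by a dedicated RNA polymerase, and the tRNAs that lie between most of the longer genes are cut out to release the rRNAs and mRNAs. The rRNAs and tRNAs serve the ribosomes inside the organelle, and the mRNAs encode subunits of respiratory complexes I, III and IV and of the ATP synthase. CMs are rich in mitochondria because they draw most of their ATP from oxidative phosphorylation, so mitochondrial RNA is a large part of total RNA from this cell type.

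The values are reads per gene that the authors divided by a size factor per sample and rounded to whole numbers, called normalized counts below. Summed over all rows, they ranged from 13665354 to 16243545 in CtrlCre and from 13393411 to 31722217 in Cpt1bcKO, and the spacing of the low values gives an estimated depth of 14900000 to 24500000 counted reads per sample. Cpt1b itself stood at 1861, 893 and 1443 normalized counts in CtrlCre and at 211, 353 and 285 in Cpt1bcKO, a log2 difference of −2.27 (adjusted p = 0.00338, limma), as the genotype labels say. All 10 cardiomyocyte markers had rows and were tested, 9 with a log2 difference below 0 (median −0.37, 2 at an unadjusted p below 0.05 and 0 called by limma), and their summed level ran from 559883 to 654008 in CtrlCre and from 370866 to 599226 in Cpt1bcKO. Fibroblast markers moved with the genotype: all 6 that could be tested were higher in Cpt1bcKO, Col1a1 and Lum past the adjusted threshold, and the summed level of the list of 7 was 473 to 711 in CtrlCre against 1011 to 1202 in Cpt1bcKO. All 7 endothelial markers had a log2 difference above 0 (median 0.34, 1 at an unadjusted p below 0.05 and 0 called by limma). Over all genes tested, 49.8% lay above 0, 13.9% had an unadjusted p below 0.05 and 1.57% were called (limma). Endothelial markers summed to 1326 to 2692 in CtrlCre and 2306 to 2684 in Cpt1bcKO, smooth muscle markers to 1092 to 2248 and 1155 to 1704, immune markers to 82 to 115 and 95 to 109, and erythroid markers, 2 of 5 with a row, to 3 to 20 and 1 to 18. The part of these marker differences in the results below was not tested. In bulk samples fewer cells of a type and less RNA per cell cannot be told apart. Xist, the RNA of the inactive X chromosome, was at 957 and 1080 in the samples numbered 1 of the 2 groups and at 23 to 78 in the other 4. The study's methods describe its in vivo samples as biological replicates, and the labels do not name the animal behind each sample.

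Of 37 genes that the GENCODE annotation (release M21, build GRCm38) places on the mitochondrial chromosome, 24 had a row, each with the same start, end and strand as in that annotation. The rows covered both rRNAs, 8 of 13 mRNAs and 14 of 22 tRNAs. The mRNAs mt-Co2, mt-Atp8, mt-Atp6, mt-Co3 and mt-Nd4l and the tRNAs mt-Tw, mt-Ty, mt-Ts1, mt-Td, mt-Tk, mt-Tg, mt-Th and mt-Ts2 were not analysed here.

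Most normalized counts in every sample came from the mitochondrial genome. The share of the sample sum was 78.1%, 76.7% and 74.8% in CtrlCre and 76.5%, 83.8% and 89.5% in Cpt1bcKO. Cpt1bcKO 3 had the highest share and Cpt1bcKO 1 lay among the controls, so the groups overlapped. Most of it was rRNA, with 66.5% ± 0.973 of the sum in CtrlCre and 74.2% ± 9.31 in Cpt1bcKO (mean ± SD, n = 3 each). The spread among Cpt1bcKO samples thus exceeded the difference between the means. The mRNAs held 10.7%, 10.1% and 9.37% of the sum in CtrlCre and 12.1%, 8.47% and 6.57% in Cpt1bcKO, again overlapping. The tRNA rows together held 0.0136% ± 0.00169 in CtrlCre and 0.0105% ± 0.00269 in Cpt1bcKO, with overlap. The log2 ratio of these tRNA means was −0.37, but 0.041 with the rRNAs left out of the sum and 0.16 over the genes outside the mitochondrial genome.

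Because a single rRNA took most of the sum, the mRNAs were also set against the genes outside the mitochondrial genome. The summed mRNA level divided by the summed level of those genes was 0.491, 0.433 and 0.372 in CtrlCre and 0.513, 0.522 and 0.629 in Cpt1bcKO. On this scale every Cpt1bcKO sample lay above every CtrlCre sample, with a difference between means of 0.123. As a share of the whole sum the mean was lower in Cpt1bcKO, with a log2 ratio of −0.16. This ratio was 0.029 without Cpt1bcKO 3 and −0.42 without Cpt1bcKO 1. The numerator and the denominator both moved: the mRNAs summed to 1508260 ± 231641 in CtrlCre and 1792680 ± 254937 in Cpt1bcKO, with overlap, and the other genes to 3487000 ± 58279 and 3227180 ± 84962, without overlap (mean ± SD, n = 3 each). The same ratio for the rRNAs was 3.08, 2.86 and 2.60 in CtrlCre and 2.74, 4.64 and 7.94 in Cpt1bcKO. The rRNA ratio therefore ranged widely among Cpt1bcKO samples and overlapped the controls at Cpt1bcKO 1.

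**Figure D1:**
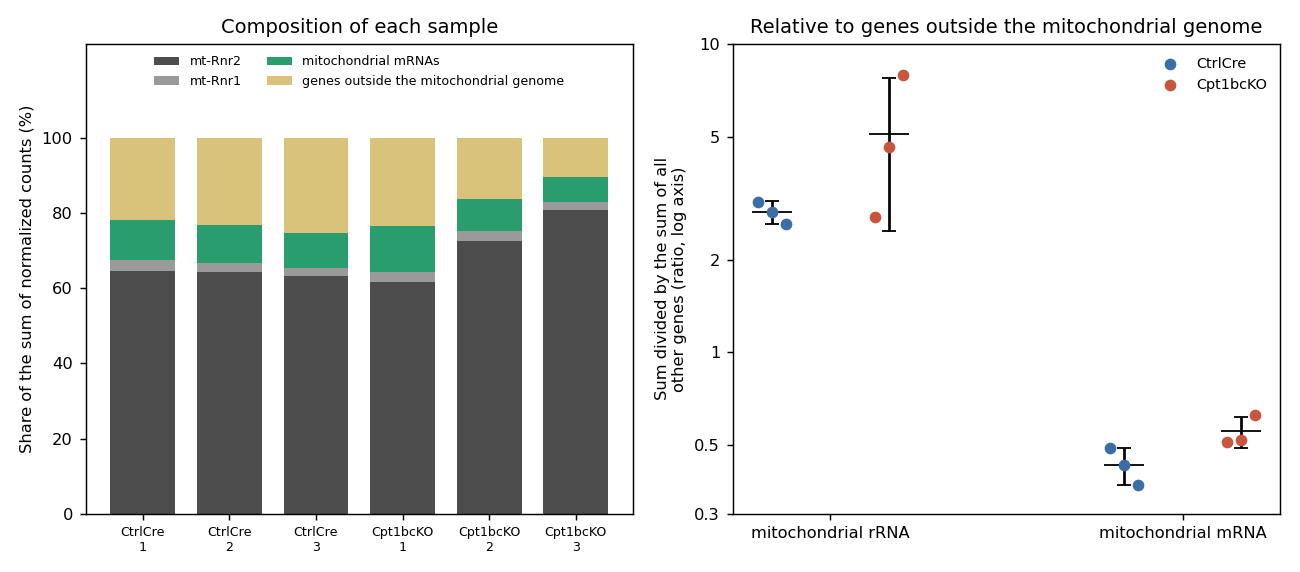
Left, stacked bars give the share of each sample's sum of normalized counts (%) held by mt-Rnr2, mt-Rnr1, the mitochondrial mRNAs and all other genes; tRNAs are too few to be seen. Right, the summed rRNA or mRNA level divided by that of all other genes on a log axis, with 1 point per sample and the mean ± SD of 3 samples in black; for mRNA the Cpt1bcKO points (0.513 to 0.629) lie above the CtrlCre points (0.372 to 0.491).

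Across the 22 members that passed the filter on low values, 20 had a log2 difference above 0 in Cpt1bcKO and 2 below 0, but only 13 lay above 0 once the whole sum was made equal in every sample. Of all 11364 genes tested, 49.8% lay above 0 as deposited. The whole sum made equal moved the median of all genes to −0.44, so most then lay below 0. As deposited, the median log2 difference of the 22 members was 0.52, and that of all genes was −0.0013. A single member, mt-Tm, passed an adjusted p below 0.05 in limma's test, and none was called lower (2 had an unadjusted p below 0.05). Over all genes 1.57% were called (178 genes), 0.66% higher (75 genes) and 0.906% lower (103 genes). At an unadjusted p below 0.05 there were 7 members higher and 2 lower, beside 6.66% and 7.22% of all genes. The 6 samples did not overlap between groups for 7 members that were higher and 2 that were lower in Cpt1bcKO, beside 9.13% and 9.6% of all genes. The 2 rows that failed the filter were mt-Te, at 6, 3 and 9 in CtrlCre and 2, 2 and 0 in Cpt1bcKO, and mt-Tf, at 0, 3 and 4 and then 10, 6 and 13.

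The size factors bear on these counts. Making the sum without mitochondrial and rRNA genes equal moved the median of all genes to 0.11, making the whole sum equal moved it to −0.44, and making the sum of mitochondrial mRNAs equal moved it to −0.25. The split of calls over all genes became 102 higher and 74 lower, 26 and 99, and 50 and 214 in that order. The medians of the 22 members were 0.63, 0.088 and 0.28 under these 3 scalings. A scaling multiplies all genes of a sample alike, so it shifts members and other genes together and cannot test the gap between their medians. Of the whole sum 61.8% to 80.8% was mt-Rnr2, and the mRNA sum consists of members. A change of sign under these 2 scalings is therefore partly set by the members themselves.

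The rRNAs form the cores of the small and the large mitochondrial ribosomal subunit. mt-Rnr2 (chrM:1094-2675, plus strand), the large subunit rRNA, was the most abundant row of the table. Its normalized counts were 10490796, 9606145 and 8634455 in CtrlCre and 8270507, 14407172 and 25646063 in Cpt1bcKO. The lowest and the highest of the 6 values both belonged to Cpt1bcKO, and the log2 difference of 0.60 (SE 0.975, adjusted p = 0.830, limma) did not pass the test. Its SE was 0.393 without the variance trend. The difference came to 0.19 without Cpt1bcKO 3, to 1.01 without Cpt1bcKO 1 and to 0.15 with the whole sum made equal. With replicates 2 and 3 of each group alone it was 1.08 (adjusted p = 0.436, limma). mt-Rnr1 (chrM:70-1024, plus strand), the small subunit rRNA, read 455578, 326798 and 310591 in CtrlCre and 360409, 525566 and 673231 in Cpt1bcKO. The same order of the Cpt1bcKO samples was seen for this rRNA, with a log2 difference of 0.49 (SE 0.369, adjusted p = 0.600, limma). It came to 0.28 without Cpt1bcKO 3, to 0.73 without Cpt1bcKO 1 and to 0.038 with the whole sum made equal. With replicates 2 and 3 of each group alone it was 0.90 (adjusted p = 0.103, limma). The rRNAs are copied from the same strand and start region, yet mt-Rnr2 exceeded mt-Rnr1 by a factor of 23.0, 29.4 and 27.8 in CtrlCre and of 22.9, 27.4 and 38.1 in Cpt1bcKO. The factor was highest in Cpt1bcKO 3 and almost the same in the samples numbered 1. The summed rRNAs exceeded the summed mRNAs 6.28, 6.61 and 6.99 times in CtrlCre and 5.35, 8.89 and 12.6 times in Cpt1bcKO. Cpt1bcKO 1 lay below and the other Cpt1bcKO samples above all CtrlCre samples. The other 6 rRNA rows of the table, outside the mitochondrial genome, reached at most 9 normalized counts. The library kit used for these samples includes a step that removes rRNA from total RNA. Whether that step acted on either mitochondrial rRNA was not tested, nor was its part in the differences between samples.

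Among the mRNAs, 6 of the 8 rows encode subunits of complex I, the NADH dehydrogenase, mt-Co1 the catalytic subunit of complex IV, the cytochrome c oxidase, and mt-Cytb the cytochrome b of complex III. All 8 had a log2 difference above 0 as deposited, with a median of 0.26. With the whole sum made equal, which moved the median of all genes to −0.44, 6 of them turned below 0. None passed the adjusted threshold (limma), 1 passed an unadjusted p below 0.05, beside 13.9% of all genes in either direction, and 2 had groups without overlap, beside 18.7%.

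mt-Co1 (chrM:5328-6872) was at 951466, 683983 and 573180 in CtrlCre and 842584, 738675 and 940640 in Cpt1bcKO. CtrlCre 1 held the highest value of all 6, and the difference of 0.22 (SE 0.403, adjusted p = 0.854, limma) was within the spread of the replicates. It turned negative with the whole sum or the mRNA sum made equal, but mt-Co1 itself held 44.0% to 54.6% of that mRNA sum. mt-Cytb (chrM:14145-15288) was at 83249, 81406 and 69180 and then 72780, 91844 and 102814, a difference of 0.18 (adjusted p = 0.770, limma) that turned negative under the same scalings. Leaving out a sample moved mt-Co1 to between 0.052 (without CtrlCre 3) and 0.42 (without CtrlCre 1), and mt-Cytb to between 0.074 (without Cpt1bcKO 3) and 0.32 (without Cpt1bcKO 1).

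mt-Nd1 (chrM:2751-3707), which lies next to mt-Rnr2, was at 261939, 216274 and 205981 in CtrlCre and 282052, 247443 and 289988 in Cpt1bcKO. Only Cpt1bcKO 2 fell inside the CtrlCre range, and the log2 difference was 0.26 (SE 0.279, adjusted p = 0.727, limma), negative with the whole sum made equal. mt-Nd2 (chrM:3914-4951) was at 85665, 90550 and 73663 in CtrlCre and 94852, 114345 and 129250 in Cpt1bcKO. Here the groups did not overlap, but the log2 difference of 0.43 (SE 0.231, adjusted p = 0.440, limma) did not pass the test, and it came to −0.018 with the whole sum made equal. mt-Nd4 (chrM:10167-11544) was at 69513, 70322 and 67900 and then 66453, 85909 and 97089. Its CtrlCre samples lay close together and the Cpt1bcKO samples on both sides of them, with a difference of 0.25 (adjusted p = 0.672, limma) that was 0.13 without Cpt1bcKO 3, 0.40 without Cpt1bcKO 1 and negative with the whole sum or the mRNA sum made equal. mt-Nd5 (chrM:11742-13565) was at 213489, 255573 and 214870 and then 171221, 269530 and 351967. Cpt1bcKO again held both extremes, and the difference of 0.16 (adjusted p = 0.874, limma) became −0.081 without Cpt1bcKO 3 and was negative with the whole sum or the mRNA sum made equal.

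mt-Nd6 (chrM:13552-14070, minus strand) is the only mRNA encoded on the opposite strand from the rest. It was at 77517, 103688 and 74918 normalized counts in CtrlCre and 84128, 131042 and 172681 in Cpt1bcKO. Cpt1bcKO 1 lay inside the CtrlCre range and the other 2 above it, for a log2 difference of 0.55 (SE 0.298, adjusted p = 0.441, limma). It came to 0.31 without Cpt1bcKO 3, to 0.83 without Cpt1bcKO 1 and to 0.10 with the whole sum made equal. Divided by the sum of the other mRNAs, mt-Nd6 stood at 0.0465, 0.0742 and 0.0622 in CtrlCre and at 0.0550, 0.0847 and 0.0903 in Cpt1bcKO, which overlapped.

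mt-Nd3 (chrM:9459-9806) had the lowest level of the mRNA rows and the smallest standard error. It was at 156, 161 and 148 normalized counts in CtrlCre and 251, 258 and 246 in Cpt1bcKO. The groups did not overlap, with a log2 difference of 0.70 (SE 0.150) and an adjusted p of 0.0528 (limma), just outside the threshold. The difference came to 0.25 (SE 0.468) with the whole sum made equal and to 0.45 with the mRNA sum made equal. Over 16 alternative settings this p ranged from 0.0162 to 0.797 and passed in 4. Few positions of this gene can give a counted read, as described next.

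**Figure D2:**
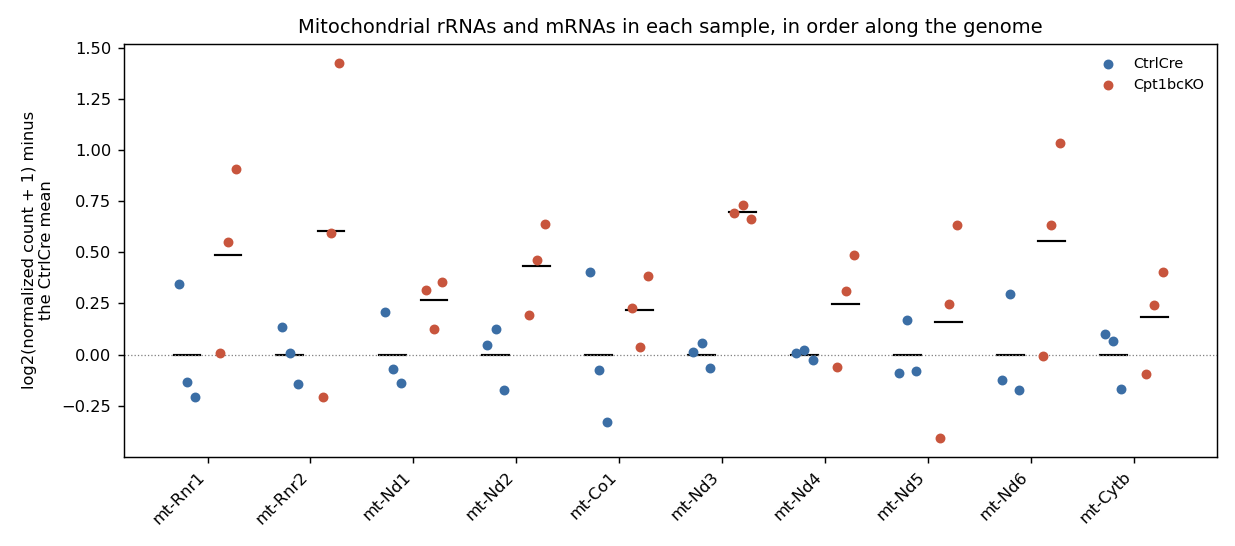
Each point is 1 sample's log2(normalized count + 1) minus the CtrlCre mean for that gene, and black lines are group means (n = 3). mt-Nd2 and mt-Nd3 are the genes whose groups do not overlap, and mt-Rnr2 spans the widest range in Cpt1bcKO. With the whole sum made equal the means of mt-Nd1, mt-Nd2, mt-Co1, mt-Nd4, mt-Nd5 and mt-Cytb fall below 0, as does the median of all genes (−0.44).

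Copies of mitochondrial DNA sit in the nuclear genome, and the authors left out reads that mapped to several regions. To see how much of each gene this touches, every 75-base window of a mitochondrial gene, the length of a read, was looked for in the other annotated transcripts. For mt-Nd3, 268 of 274 windows (97.8%) also occurred in a nuclear copy, Gm28438, which leaves 6. For mt-Nd4 the shared windows were 802 of 1304 (61.5%), for mt-Co1 586 of 1471 (39.8%), for mt-Nd2 55 of 964 and for mt-Nd5 29 of 1750. Both rRNAs, mt-Nd1, mt-Nd6 and mt-Cytb had none. Among the mRNAs not analysed here, mt-Co2 shared 607 of 610 windows, mt-Atp6 604 of 607, mt-Co3 709 of 710 and mt-Nd4l 220 of 223, whereas mt-Atp8 shared none. Of 12 annotated nuclear genes that held such windows, 11 had rows, with values between 1 and 346, and 6 of the rows were on chromosome 1. The search covered annotated transcripts only, so a window that runs past the end of an annotated copy counts as unshared even where the genome continues the match.

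**Figure D3:**
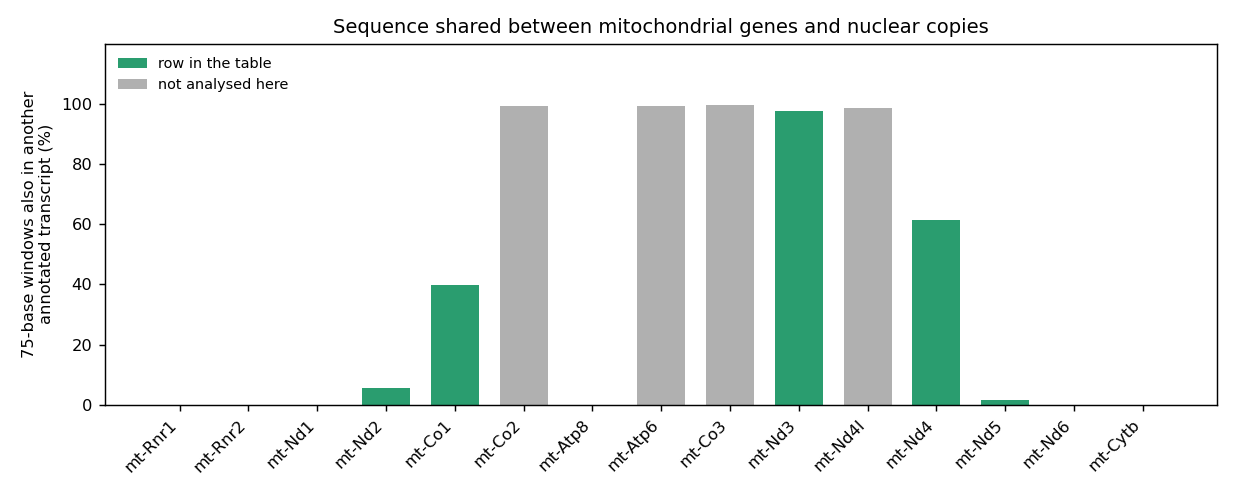
Bars give the percentage of 75-base windows of each mitochondrial rRNA and mRNA gene, in order along the genome, that also occur in another annotated transcript; green bars are genes with a row and grey bars are genes not analysed here. mt-Nd3 (97.8%), mt-Nd4 (61.5%) and mt-Co1 (39.8%) are the rows with the highest percentages, and genes without a bar are at 0.

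Levels per length allow for the lengths of the genes, but not for shared windows or for any removal of rRNA. Per kilobase, mt-Rnr2 averaged 6053810 normalized counts in CtrlCre and 10182000 in Cpt1bcKO, mt-Co1 476511 and 544099, mt-Rnr1 381489 and 544225, and mt-Nd1 238312 and 285435. Below these came mt-Nd6 at 164498 and 249101, mt-Nd5 at 124988 and 144868, mt-Nd2 at 80243 and 108686, mt-Cytb at 68134 and 77925, and mt-Nd4 at 50250 and 60341. mt-Nd3 was last at 445 and 723 per kilobase. Counting only windows that no other transcript shares changed the place of mt-Nd4, which came to 138 per window in CtrlCre and 166 in Cpt1bcKO, beside 132 and 154 for mt-Nd5, 91.6 and 124 for mt-Nd2 and 72.8 and 83.3 for mt-Cytb. Among neighbours in the order per kilobase, the CtrlCre samples of mt-Co1 and mt-Rnr1 overlapped, as did those of mt-Nd2 and mt-Cytb, and the other neighbours did not. On the scale per unshared window, mt-Nd4 and mt-Nd5 differed by less than 1 SD of mt-Nd5 in either group. With 50-base windows mt-Nd4 was at 138 and mt-Nd5 at 139 in CtrlCre, and at 166 and 161 in Cpt1bcKO. Per unshared 75-base window mt-Co1 came to 832 and 950 in CtrlCre and Cpt1bcKO, beside 414 and 590 for mt-Rnr1.

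The make-up of the summed mRNA rows does not depend on the size factors. These shares cover 8 of 13 mRNAs and allow neither for gene length nor for shared windows, so they are not the make-up of mitochondrial mRNA. mt-Co1 held 54.6%, 45.5% and 44.8% of the summed mRNAs in CtrlCre and 52.2%, 44.0% and 45.1% in Cpt1bcKO. mt-Nd5 held 12.2%, 17.0% and 16.8% and then 10.6%, 16.1% and 16.9%, and mt-Nd6 held 4.45%, 6.90% and 5.85% and then 5.21%, 7.80% and 8.28%. In both groups the sample numbered 1 had the highest mt-Co1 share and the lowest mt-Nd5 and mt-Nd6 shares, and these are the 2 samples with high Xist. Whether the animals' sex plays a part in this was not tested. As a share of all summed mRNAs, mt-Nd3 was the one gene whose groups did not overlap, at 0.00895%, 0.0107% and 0.0116% and then 0.0155%, 0.0154% and 0.0118%. The mt-Nd2 and mt-Cytb shares of all summed mRNAs overlapped, but with mt-Co1 left out of the sum they did not. mt-Nd2 held 10.8%, 11.1% and 10.4% in CtrlCre and 12.3%, 12.2% and 11.3% in Cpt1bcKO. mt-Cytb held 10.5%, 9.95% and 9.79% and then 9.43%, 9.77% and 8.99%, so only 9.79% (CtrlCre 3) against 9.77% (Cpt1bcKO 2) parted the groups. The differences between means were 1.14 percentage points for mt-Nd2 and −0.692 for mt-Cytb, and no test was made on shares. Shares of 1 sum depend on one another, and there is no rate over all genes to set beside them.

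The tRNA rows had low values, and here differences in both directions and the single call were found. Of 12 tRNAs tested, 10 had a log2 difference above 0 and 2 below 0, with a median of 0.996. Of these, 6 higher and 2 lower had an unadjusted p below 0.05, beside 6.66% and 7.22% of all genes, and 5 higher and 2 lower had groups without overlap, beside 9.13% and 9.6%. The 7 tested tRNAs on the plus strand were all higher in Cpt1bcKO, and of 5 on the minus strand 3 were higher and 2 lower, where mt-Tq turned below 0 with the whole sum or the mRNA sum made equal. With the whole sum made equal the median was 0.58, 9 tRNAs lay above 0 and 4 higher and 2 lower had an unadjusted p below 0.05 (limma). On that scale the median of all 11453 genes tested was −0.44, with 99 higher and 937 lower at that threshold. The tRNA genes below are the 4 with the largest positive differences and both with a negative difference among tested tRNAs whose groups did not overlap, written 5′ to 3′ as DNA from the GENCODE transcripts on GRCm38. Capitals mark the anticodon.
mt-Tm: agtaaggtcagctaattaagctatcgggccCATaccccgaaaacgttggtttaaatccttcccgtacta
mt-Tv: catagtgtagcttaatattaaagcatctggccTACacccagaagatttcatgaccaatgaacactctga
mt-Ti: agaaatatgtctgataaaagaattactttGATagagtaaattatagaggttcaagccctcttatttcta
mt-Tr: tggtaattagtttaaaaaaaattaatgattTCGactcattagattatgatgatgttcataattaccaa
mt-Tn: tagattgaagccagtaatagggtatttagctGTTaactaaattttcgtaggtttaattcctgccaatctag
mt-Tc: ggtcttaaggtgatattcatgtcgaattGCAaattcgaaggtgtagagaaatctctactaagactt

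mt-Tm (chrM:3845-3913, plus strand), the methionine tRNA that reads with anticodon CAT and lies directly before mt-Nd2, was at 121, 99 and 59 normalized counts in CtrlCre and 202, 297 and 335 in Cpt1bcKO. It rose in Cpt1bcKO by 1.60 on the log2 scale (SE 0.281, adjusted p = 0.0205, limma), and every Cpt1bcKO sample lay above every CtrlCre sample. Over 16 alternative settings its adjusted p ranged from 0.00427 to 0.350. The call was lost without CtrlCre 2 (adjusted p = 0.0680), without CtrlCre 3 (adjusted p = 0.0654), without Cpt1bcKO 2 (adjusted p = 0.135) and without Cpt1bcKO 3 (adjusted p = 0.0700). The log2 difference in these 4 fits lay between 1.30 and 1.67. The call was also lost with the whole sum made equal (log2 difference 1.15, adjusted p = 0.350) and without the variance trend in limma (log2 difference 1.60, adjusted p = 0.112). mt-Tv (chrM:1025-1093, plus strand), the valine tRNA between the rRNAs, was at 126, 95 and 56 and then 205, 174 and 349. Its groups did not overlap either, and the log2 difference was 1.39 (SE 0.324, adjusted p = 0.0672, limma).

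mt-Ti (chrM:3706-3774, plus strand), the isoleucine tRNA, whose first bases overlap the end of mt-Nd1, was at 11, 5 and 4 in CtrlCre and 20, 17 and 48 in Cpt1bcKO. mt-Tr (chrM:9808-9875, plus strand), the arginine tRNA after mt-Nd3, was at 7, 20 and 12 and then 25, 36 and 79. These had the largest log2 differences among the 22 members that passed the filter, 1.90 (SE 0.524, adjusted p = 0.128) for mt-Ti and 1.71 (SE 0.484, adjusted p = 0.136) for mt-Tr by limma, with the highest value of each in Cpt1bcKO 3. mt-Tt, the threonine tRNA, was at 12, 9 and 6 and then 21, 11 and 27, a difference of 1.01 (adjusted p = 0.369, limma) with overlap. mt-Tl1, a leucine tRNA, was at 12, 13 and 10 and then 27, 30 and 17, without overlap, a difference of 0.99 (adjusted p = 0.254, limma). With the whole sum made equal the differences were 0.95 for mt-Tv, 1.49 for mt-Ti, 1.28 for mt-Tr, 0.60 for mt-Tt and 0.58 for mt-Tl1.

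Against this direction, mt-Tn (chrM:5089-5159, minus strand), the asparagine tRNA, was at 818, 541 and 614 normalized counts in CtrlCre and 328, 452 and 325 in Cpt1bcKO. All Cpt1bcKO values lay below all CtrlCre values, with a log2 difference of −0.83 (SE 0.196, adjusted p = 0.0719, limma). The difference was −1.28 (adjusted p = 0.212) with the whole sum made equal, and −1.08 with the mRNA sum made equal, where mt-Tn was called lower (adjusted p = 0.0254, limma). mt-Tc (chrM:5192-5257, minus strand), the cysteine tRNA on the other side of the origin of light-strand replication, was at 825, 596 and 779 and then 368, 555 and 516. It too showed no overlap, with a log2 difference of −0.62 (SE 0.193, adjusted p = 0.176, limma), which was −1.07 with the whole sum made equal and −0.44 without Cpt1bcKO 1. These neighbours were the tRNA rows with the highest means. mt-Tp, the proline tRNA at the far end of the genome and also on the minus strand, came next, at 491, 347 and 281 and then 505, 479 and 654, and its difference of 0.57 (adjusted p = 0.259, limma) had the opposite sign. It came to 0.13 with the whole sum made equal and to 0.32 with the mRNA sum made equal.

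**Figure D4:**
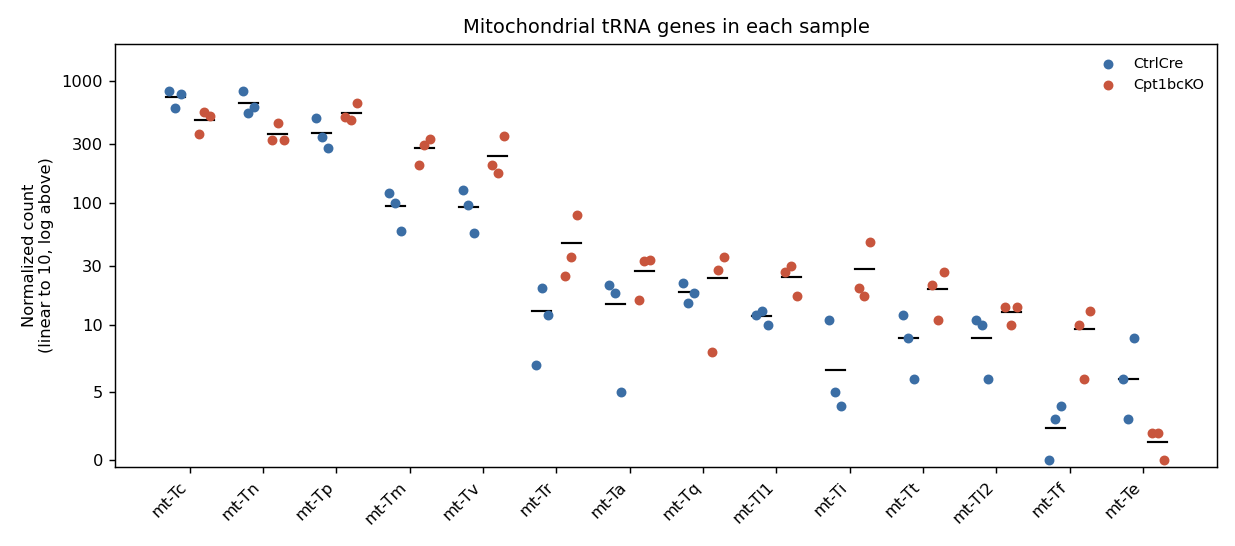
Points are normalized counts of the 14 tRNA rows in each sample, ordered by mean over all 6 samples, on an axis that is linear to 10 and logarithmic above; black lines are group means (n = 3). mt-Tc and mt-Tn are lower in each Cpt1bcKO sample than in each CtrlCre sample, mt-Tm and mt-Tv are higher, and the rows to the right of mt-Tv reach at most 79.

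Apart from mt-Tl1, which is 75 bases long, each tRNA gene is shorter than a 75-base read, so an untrimmed read must reach past its ends, and reads that touched several genes were left out. The windows that touch a tRNA gene and no other annotated gene on either strand were therefore counted. mt-Tp had 67 such windows, mt-Tn 31, mt-Tc 26 and mt-Tl1 1, and the other 10 tRNA rows had 0. Where only genes on the same strand are considered, mt-Tm had 65, mt-Ti 63, mt-Ta 71, mt-Tq 145 and mt-Tp 141, while mt-Tv, mt-Tf, mt-Tr and mt-Tl2 still had none. A count in those 4 rows, or in all 10 rows including mt-Tm if strand was not used, needs an aligned part shorter than 75 bases, as trimming or clipping leaves, so the value of a tRNA row need not be the level of the tRNA. Whether strand was used in counting is not given in the sources used here. Of 498 annotated genes that lie wholly under exons of the opposite strand, 19 (3.82%) had a row, beside 29.6% of all annotated genes. The snoRNAs, short nuclear RNAs that guide the modification of rRNA, are given beside the tRNAs, a comparison chosen after the values were seen. Of 43 snoRNA genes tested, 42 had a log2 difference above 0 as deposited, with a median of 0.68, beside 49.8% of all genes above 0. Among these snoRNAs there was 1 call (limma), beside 1.57% of all genes, and 14 had an unadjusted p below 0.05, beside 13.9%. With the whole sum made equal 34 of 41 snoRNAs lay above 0 and their median was 0.26, beside a median of −0.44 for all genes. On that scale 0 snoRNAs were called and 2 had an unadjusted p below 0.05 (limma), beside 99 higher and 937 lower of 11453 genes. The part of RNA or read length in the tRNA differences was not tested.

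The proteins that copy, process, modify and translate mitochondrial RNA are encoded in the nucleus, and 7 lists of their genes were followed beside the members. Of 114 genes, 106 were tested, 51 with a log2 difference above 0 and 55 below 0, with a median of −0.018. Scaling moved this split to 71 above and 34 below 0 with the sum outside mitochondrial and rRNA genes made equal, to 10 and 96 with the whole sum made equal (median −0.45) and to 28 and 78 with the mRNA sum made equal (median −0.26). None passed the adjusted threshold (limma), and 5 higher and 1 lower had an unadjusted p below 0.05, beside 6.66% and 7.22% of all genes. These unadjusted counts were 17 and 1, 0 and 3, and 1 and 8 under the scalings in the order above. Over all genes they were 1221 and 500, 99 and 937, and 245 and 1514. The counts of the lists were 10 and 1 without CtrlCre 1, 1 and 2 without CtrlCre 3, and 2 and 9 without Cpt1bcKO 1. The alternatives gave between 0 and 2 calls.

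Of 9 transcription genes tested, 5 were above 0 and 4 below 0, with a median of 0.03. Polrmt, the mitochondrial RNA polymerase, was at 104, 96 and 104 in CtrlCre and 84, 115 and 114 in Cpt1bcKO, a log2 difference of 0.03. Tfam, the factor that packages mitochondrial DNA and starts transcription, was at 331, 258 and 237 and then 346, 219 and 226, a difference of −0.08. Both overlapped between groups. The 12 RNA processing genes split into 4 above and 8 below 0 (median −0.12), and the 10 stability and decay genes into 2 and 8 (median −0.07). Lrpprc, which binds and stabilizes mitochondrial mRNAs, was at 1907, 2071 and 2071 and then 1828, 1960 and 1853, a difference of −0.10. Its partner Slirp was at 36, 17 and 35 and then 37, 27 and 31, a difference of 0.17.

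Of 16 genes for mitochondrial DNA replication and nucleotide supply, 7 were above and 9 below 0. Mpv17, an inner membrane protein needed to maintain mitochondrial DNA, was at 292, 200 and 240 normalized counts in CtrlCre and 158, 116 and 145 in Cpt1bcKO. These groups did not overlap, with a log2 difference of −0.80 (adjusted p = 0.0872, limma). Polg, the catalytic subunit of the mitochondrial DNA polymerase, was at 182, 214 and 202 and then 260, 238 and 273, a difference of 0.37 (adjusted p = 0.327, limma).

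The 25 rRNA and tRNA modification genes had a median of 0.14 and the 22 tRNA synthetases 0.21, with 15 and 13 of them above 0. With the whole sum made equal, 3 and 5 were above 0 and the medians were −0.29 and −0.24, beside −0.44 for all genes. Pus1, a pseudouridine synthase of tRNAs, was at 31, 37 and 27 and then 54, 45 and 53, a difference of 0.67 (adjusted p = 0.253, limma). Wars2, the mitochondrial tryptophanyl-tRNA synthetase, was at 50, 37 and 40 in CtrlCre and 70, 77 and 98 in Cpt1bcKO, a difference of 0.93 (adjusted p = 0.0921, limma). Both had every Cpt1bcKO sample above every CtrlCre sample. Yars2 and Ears2, the synthetases for tyrosine and glutamate, had differences of 0.54 and 0.72 (adjusted p = 0.301 and 0.338, limma). The 12 translation factor genes had a median of −0.13, with 5 above and 7 below 0.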

How the data were processed

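Total RNA of 6 CM samples, 3 per genotype, was sequenced as single reads of 75 bases. According to the study's methods and the submitters' processing notes, reads were trimmed with Trimmomatic (0.36), aligned to mm10 (GRCm38.p5) with STAR (2.5.4b), counted on exons with featureCounts (1.6.0) without reads on several genes or regions, and normalized with DESeq2 (1.14.1). The deposited sample values are scores, that is, normalized counts rounded to whole numbers by the authors, so no count model was used. The deposited table also holds the authors' mean normalized counts (used only to check the unit), their log2 fold changes and their p-values, and no value of these was used.

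Here log2(value + 1) was fitted with limma 3.58.1 in R 4.3.3 (no covariates, variance trend), for genes with at least 10 in at least 3 samples, with Benjamini-Hochberg adjustment over all 11364 genes and a threshold of 0.05. Fold changes on this scale understate changes of low genes. In simulated data for this comparison with 16448 genes, 145 of 199 changed genes tested and 4 of 10950 unchanged genes were called. The simulation used the same dispersion for all genes, no error in the size factors, and changes larger than the log2 differences of the rRNAs and mRNAs. Its rates therefore need not hold for the members. An exact permutation test of 3 against 3 cannot go below 0.10, so sums, shares and ratios are given as values.

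Depth was estimated from the smallest step between low values. Windows and tRNA sequences came from GENCODE M21 transcripts on GRCm38. Named tRNAs were the 5 with the highest mean and the 5 with the largest absolute difference, with mt-Tl1 added after its values were seen; named nuclear genes were up to 4 per list with an unadjusted p below 0.05, and Polrmt, Tfam, Lrpprc and Slirp were chosen by function. The members and lists were chosen with earlier results of these data known. Alternatives changed the scaling, pseudocount, filter, variance trend, replicate block and samples.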

Additional observations from a re-analysis of the deposited data

How the results depend on the processing

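Members called higher, 1 as reported, numbered 3 with the sum outside mitochondrial and rRNA genes made equal, 2 with the mRNA sum made equal, 2 with a pseudocount of 5, 2 with at least 10 in every sample, 2 with replicates 2 and 3 alone, 0 with the whole sum made equal, 0 without the variance trend, and 0 to 1 when a replicate was left out. With the replicate number as a block, 4 members were called higher and 1 lower, 2 nuclear genes of mitochondrial gene expression were called, and 249 genes were called higher and 354 lower in all. The same-numbered samples' deviations from their group means correlated at 0.376, 0.255 and 0.0684, and sample 3 of CtrlCre correlated more with Cpt1bcKO 2 (0.119). With 3 samples per group these deviations are tied to one another, so the correlations cannot decide on a pairing. The numbers were not taken as one in the main fit. With the mRNA sum made equal, 1 member was called lower and 1 nuclear gene was called. Calls over all genes, 75 higher and 103 lower as reported, numbered 17 and 23 without Cpt1bcKO 2 and 137 and 168 without Cpt1bcKO 1. Without the variance trend they numbered 23 and 18. Members above 0, 20 as reported, numbered 13 with the whole sum made equal, where the median of all genes was −0.44, and 18 to 20 when a replicate was left out. The members' median log2 difference, 0.52 as reported, was 0.32 without Cpt1bcKO 3 and 0.71 without Cpt1bcKO 1. With replicates 2 and 3 alone it was 0.74 over 20 members, and 11 higher and 1 lower had an unadjusted p below 0.05 (limma). The whole sum made equal gave log2 differences of −0.23 for mt-Co1, −0.27 for mt-Cytb, −0.18 for mt-Nd1, −0.018 for mt-Nd2, −0.20 for mt-Nd4, −0.29 for mt-Nd5 and −0.28 for mt-Tq. The mRNA sum made equal gave −0.035 for mt-Co1, −0.067 for mt-Cytb, −0.0047 for mt-Nd4, −0.095 for mt-Nd5 and −0.086 for mt-Tq. Leaving out a replicate gave −0.081 to 0.44 for mt-Nd5 and −0.24 to 0.78 for mt-Tq. The log2 ratio of the rRNA share then ran from 0.071 to 0.25, that of the mRNA share from −0.42 to 0.029 and that of the tRNA share from −0.56 to −0.19. The lower rRNA and the higher mRNA and tRNA values of these shares came without Cpt1bcKO 3, and the opposite ends without Cpt1bcKO 1. The rRNA share had a log2 ratio of 0.16, and 0.84 over the other genes. The mRNA share had −0.16, and 0.24 without the rRNAs in the sum and 0.36 over the other genes. The tRNA share had −0.37, and 0.041 and 0.16 on those scales. The cause of these changes was not tested. mt-Tm was called in 10 of 16 settings, mt-Nd3 and mt-Tv in 4 each, mt-Tn in 2 (adjusted p = 0.0254 with the mRNA sum made equal and 0.0264 with the replicate block) and mt-Tr in 1.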
